A study of Nicotiana tabacum with 6 samples.

Results

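The genes described here are 7 tomato genes of plant cell wall families whose transcripts were followed in tobacco leaves that lacked a photosystem gene. They are called cell wall genes below, although the product of TBG7 is predicted to go to the chloroplast. The 7 are the beta-galactosidase genes TBG3, TBG6 and TBG7, the expansin gene exp9, the endo-glucanase gene Cel3, the pectin methylesterase gene PMEU1 and the proline-rich protein gene TPRP-F1. All probe sets carrying one of these symbols in the platform annotation were taken, which gave 7 probe sets, 1 for each gene, of 10209 on the array and 7 genes of 803 that the annotation names. The genes were chosen by symbol with results of the same 6 arrays known, and so were selected on their log2 differences in the 3 comparisons between genotypes. Their differences are therefore given as descriptions, and whether a gene passed the array-wide threshold is a label on its value and not independent evidence.

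Leaves of tobacco (Nicotiana tabacum, cultivar Petit Havanna in the labels' spelling) came from 3 genotypes with 2 arrays each: plants with psaA deleted, which encodes a reaction-centre protein of photosystem I, plants with psbA deleted, which encodes the D1 protein of photosystem II, and wild-type plants. Both deleted genes are plastid genes. One growth text covers every group: bottles of tissue culture medium with 500 mg/L spectinomycin, dim light for 16 h and darkness for 8 h, and harvest 2 to 3 weeks after subculture. It is not clear whether wild-type plants really had the drug; if not, drug and genotype cannot be told apart, and if so, a drug response that depends on genotype cannot be told apart from the deletion. The labels name the arrays of a group biological replicates without saying whether they stand for separate plants or transformed lines, so errors cover the spread between these arrays only.

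Plant cell walls are networks of cellulose, hemicellulose, pectin and structural protein that growing cells must loosen and rebuild. Beta-galactosidases cut galactose from the side chains of wall polymers, expansins loosen the contacts between cellulose and hemicellulose without cutting them, endo-glucanases cut glucan chains, and pectin methylesterases remove methyl groups from pectin, which changes how it gels. Proline-rich proteins are part of the protein scaffold of the wall. In tomato these families have been studied above all in expanding and softening fruit, and many of their members are also active in leaves.

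The array's probes follow tomato sequences, so each value reports a tobacco transcript as far as it matches, and close family members may share signal. The deposited values are logarithms, read here as log2, centred so that the median of the 6 arrays is 0 for each probe set. They show how arrays differ and hold no signal level, so levels of different genes cannot be compared and the labelled tissue could not be checked by the level of leaf markers. Because of the centring, the middle arrays of a gene often stand at equal distances above and below 0.

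A few patterns were seen among the 7 genes. TBG6, TBG7 and exp9 were lower in both mutants than in wild type, and all 6 differences passed the array-wide threshold. PMEU1 passed as higher in the psaA mutant only (0.58, against 0.18 in the psbA mutant), and Cel3 and TPRP-F1 in the psbA mutant only (0.40 and 0.46, against 0.29 and 0.33 in the psaA mutant). Scaling the arrays on poly-A control RNAs turned the psbA values of these 3 genes below 0 (-0.31 for PMEU1, -0.087 for Cel3 and -0.030 for TPRP-F1). Whether the mutants' differences from wild type differ was tested as the difference between the mutants. As deposited, TBG3 alone of the 7 genes passed (0.56, psbA minus psaA). With poly-A scaling TBG3 gave 0.32 and did not pass, while PMEU1 gave -0.64 and passed. Over all probe sets that scaling gave 902 calls between the mutants, of which 6.76% were higher. The differences were modest, the largest in size being that of TBG7 in the psaA mutant (log2 difference -0.77). The plot of the deposited values by array shows these orders.

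**Figure D1:**
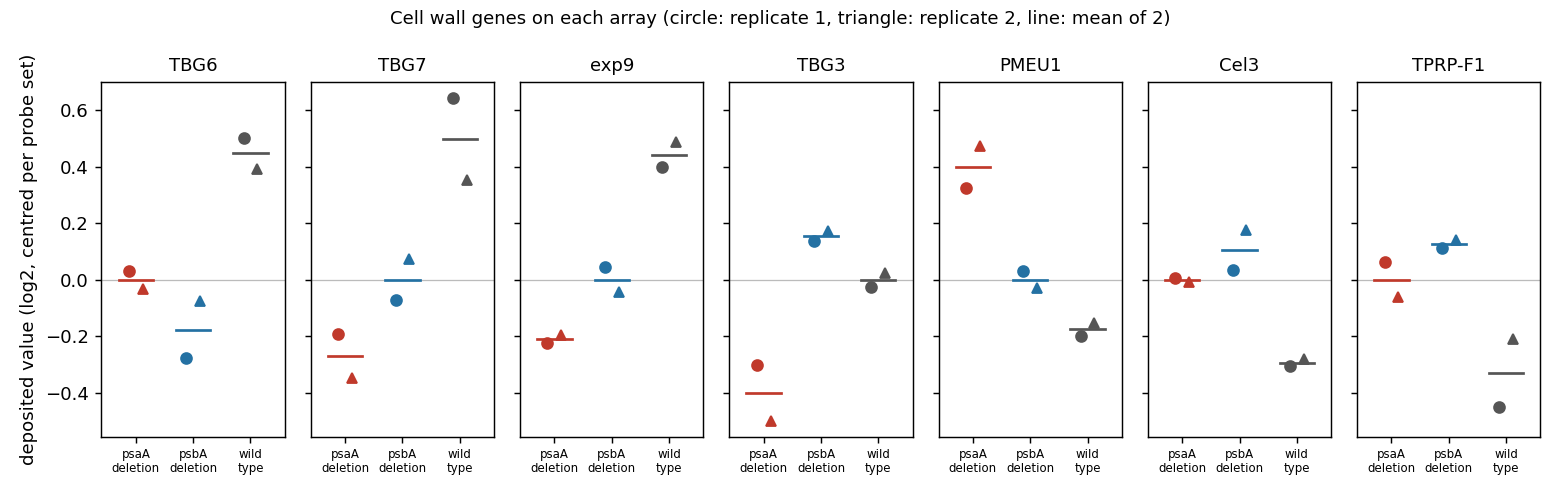
Deposited log2 value, centred per probe set (vertical axis), of the 7 cell wall genes on the 6 arrays, with the psaA deletion, psbA deletion and wild type from left to right; circles are replicate 1, triangles replicate 2 and lines the mean of 2 arrays. In TBG6, TBG7 and exp9 both wild-type arrays stand above all 4 mutant arrays, and in PMEU1, Cel3 and TPRP-F1 both stand below them.

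TBG6 (gene ID 543612) encodes a beta-galactosidase that in tomato is best known from growing fruit, where lowering its transcript was followed by fruit cracking. Its deposited values were 0.03 and -0.03 in the psaA mutant and -0.28 and -0.08 in the psbA mutant, against 0.50 and 0.39 in wild type. All 4 mutant arrays lay below both wild-type arrays, and the psbA arrays lay lowest. TBG6 was 1.36-fold lower in the psaA mutant (log2 difference -0.45, SE 0.117, n = 2 arrays per group) and 1.54-fold lower in the psbA mutant (-0.62, SE 0.117). Here and below, SE is the standard error from a linear model fitted with limma to all probe sets and all 6 arrays. A gene passed when its adjusted p (Benjamini-Hochberg over 10101 probe sets, two-sided) was under 0.05, as TBG6 did in both mutants. The mutants differed from each other by -0.18 (SE 0.117, psbA minus psaA), which did not pass.

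TBG7 (543610) encodes a beta-galactosidase set apart in its tomato family by a sequence predicted to direct it to the chloroplast and not to the wall. It stood at -0.19 and -0.35 in the psaA mutant and at -0.07 and 0.07 in the psbA mutant, against 0.64 and 0.35 in wild type. The groups did not overlap, although the wild-type arrays lay 0.29 apart, the widest replicate gap of the 7 genes. TBG7 was 1.70-fold lower in the psaA mutant (-0.77, SE 0.134) and 1.41-fold lower in the psbA mutant (-0.50, SE 0.134), and passed in both. Between the mutants the difference of 0.27 (SE 0.134, psbA minus psaA) did not pass.

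The expansin gene exp9 (543743) belongs to the alpha-expansins, the family that loosens walls at acid pH. Its values were -0.22 and -0.20 in the psaA mutant and 0.04 and -0.04 in the psbA mutant, against 0.40 and 0.49 in wild type. Replicates lay close together, 0.03 to 0.09 apart, and the order from low to high was psaA mutant, psbA mutant, wild type. The fall was 1.57-fold in the psaA mutant (-0.65, SE 0.106) and 1.36-fold in the psbA mutant (-0.44, SE 0.106), and both passed. The mutants differed by 0.21 (SE 0.106, psbA minus psaA), which did not pass.

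TBG3 (543609), a further beta-galactosidase gene, was the gene of the 7 that differed most between the mutants. Its values were 0.14 and 0.17 in the psbA mutant and -0.30 and -0.50 in the psaA mutant, with wild type at -0.03 and 0.03. The psaA arrays lay clearly below all others, while the psbA arrays lay just above wild type. Compared with the psaA mutant it was 1.47-fold higher in the psbA mutant (0.56, SE 0.113). This passed as deposited but not with poly-A scaling (0.32). Against wild type neither the psaA mutant (-0.40, SE 0.113) nor the psbA mutant (0.16, SE 0.113) passed.

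PMEU1 (544016) encodes a pectin methylesterase found in many tomato organs, leaves among them. It had 0.32 and 0.48 in the psaA mutant and 0.03 and -0.03 in the psbA mutant, against -0.20 and -0.15 in wild type. The psaA arrays were the highest, with the psbA arrays between them and wild type. In the psaA mutant it rose 1.49-fold (0.58, SE 0.109) and passed, and it stayed positive in all 5 scalings tried (below). In the psbA mutant the difference from wild type was 0.18 (SE 0.109), which did not pass. The difference of -0.40 between the mutants (SE 0.109, psbA minus psaA) did not pass either as deposited, but passed with poly-A scaling (-0.64).

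Cel3 (544032) encodes an endo-1,4-beta-glucanase of the kind anchored in a membrane, which in plants is tied to cellulose synthesis. It stood at 0.01 and -0.01 in the psaA mutant and at 0.03 and 0.18 in the psbA mutant, against -0.31 and -0.28 in wild type. Both wild-type arrays lay below all 4 mutant arrays. The difference from wild type was 0.29 in the psaA mutant (SE 0.107), which did not pass. In the psbA mutant Cel3 rose 1.32-fold (0.40, SE 0.107) and passed as deposited, but with the arrays scaled on poly-A control RNAs the value turned to -0.087.

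TPRP-F1 (544067) was first described as a proline-rich protein gene of young tomato fruit. Its values were 0.06 and -0.06 in the psaA mutant and 0.11 and 0.14 in the psbA mutant, against -0.45 and -0.21 in wild type. Wild type was again lowest, with its arrays 0.24 apart. The psaA mutant differed from wild type by 0.33 (SE 0.121), which did not pass. The psbA mutant was 1.37-fold above wild type (0.46, SE 0.121) and passed as deposited, while poly-A scaling turned this value to -0.030. Between the mutants, Cel3 differed by 0.11 and TPRP-F1 by 0.13 (psbA minus psaA), and neither passed.

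**Figure D2:**
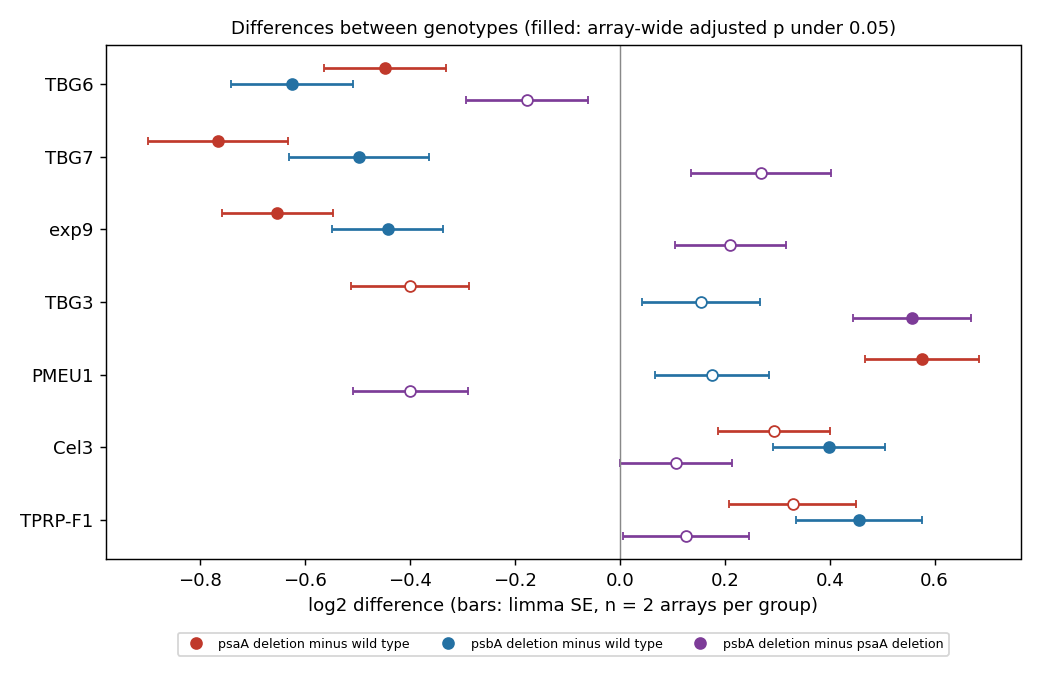
Log2 difference (horizontal axis) of the 7 cell wall genes for psaA deletion minus wild type (red), psbA deletion minus wild type (blue) and psbA deletion minus psaA deletion (purple); bars are limma's SE with n = 2 arrays per group, and filled points had an array-wide adjusted p under 0.05. TBG6, TBG7 and exp9 lie left of 0 in both mutants, and TBG3 has the only filled purple point, at 0.56.

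In the psaA mutant 4 of the 7 genes passed, beside 10.7% of all 10101 probe sets: 3 were lower than wild type, beside 6.06% of all, and 1 was higher, beside 4.66%. In the psbA mutant 5 of 7 passed, beside 11.2% of all probe sets: 3 were lower, beside 5.76%, and 2 higher, beside 5.41%. Between the mutants 1 of 7 passed, beside 3.98%, and it was higher in the psbA mutant, beside 1.78% higher and 2.2% lower over all probe sets. The median of the 7 log2 differences was -0.40 in the psaA mutant and 0.16 in the psbA mutant, against 0.02 over all probe sets in each. Nothing is read from these counts, since the same comparisons chose the genes. In all 3 comparisons the arrays of the groups did not overlap in any of the 7 genes, and this was also so for 53.7% (psaA mutant against wild type), 52.7% (psbA mutant against wild type) and 47.7% (psbA against psaA mutant) of all probe sets.

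How firmly each label stood differed. In each comparison, 2 of the 6 fits below left out an array of the third genotype. That could not change the difference, and both such fits gave the same result. For each gene in this paragraph, 2 of the passes counted come from these fits and are a single result. With each of the 6 arrays left out in turn, exp9 in the psaA mutant passed all 6 times, with log2 differences from -0.70 to -0.61. TBG7 in the psaA mutant passed 4 times and failed without psaA replicate 2 (-0.69) or wild-type replicate 1 (-0.62). TBG6 in the psbA mutant also passed 4 times and failed without psbA replicate 1 (-0.52) or wild-type replicate 1 (-0.57). PMEU1 in the psaA mutant passed 3 times and failed without psaA replicate 2 (0.50), wild-type replicate 1 (0.55) or wild-type replicate 2 (0.60).

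TBG6 in the psaA mutant passed only when a psbA array, which is not part of that comparison, was the one left out, and ranged from -0.50 to -0.39. In the psbA mutant TBG7, exp9, Cel3 and TPRP-F1 passed with none of the 6 arrays left out, nor did TBG3 between the mutants. For these the values ranged from -0.64 to -0.35 (TBG7), -0.49 to -0.40 (exp9), 0.33 to 0.47 (Cel3), 0.33 to 0.58 (TPRP-F1) and 0.46 to 0.65 (TBG3). No sign changed when an array was left out. Leaving out an array also lowers the degrees of freedom of the fit.

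The scaling between arrays bore on the genes that were higher and on some calls of the lower genes. Poly-A scaling shifts each array by its probe sets for poly-A control RNAs and moved the median of all probe sets to -0.23 in the psaA mutant and -0.47 in the psbA mutant. Under it TBG6, TBG7 and exp9 passed as lower in both mutants, and TBG3 passed as lower in the psaA mutant (-0.65). Of all 10101 probe sets, 1623 passed in the psaA mutant and 6615 in the psbA mutant, of which 7.95% and 1.27% were higher. Because the shift alone makes so many probe sets pass as lower, these calls do not show that the falls are firm. PMEU1 in the psaA mutant gave 0.33 and no longer passed, and in the psbA mutant PMEU1 (-0.31) and TBG3 (-0.33) changed sign along with Cel3 and TPRP-F1. Relative to the moved median these genes still lay on the upper side. With quantile, array-median or hybridisation-control scaling all 7 genes kept their sign in each mutant, but some calls were lost. TBG6 in the psaA mutant did not pass with quantile (-0.38) or hybridisation-control scaling (-0.40). In the psbA mutant 3 genes passed as lower and 2 as higher as deposited. With array-median scaling these counts were 3 and 0, with hybridisation-control scaling 2 and 1, and with quantile normalization 1 and 0. Neither Cel3 nor TPRP-F1 thus passed in the psbA mutant with array-median or quantile scaling. Of all 10101 probe sets, 1128 passed there as deposited. These 3 scalings gave 1122, 1098 and 893.

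**Figure D3:**
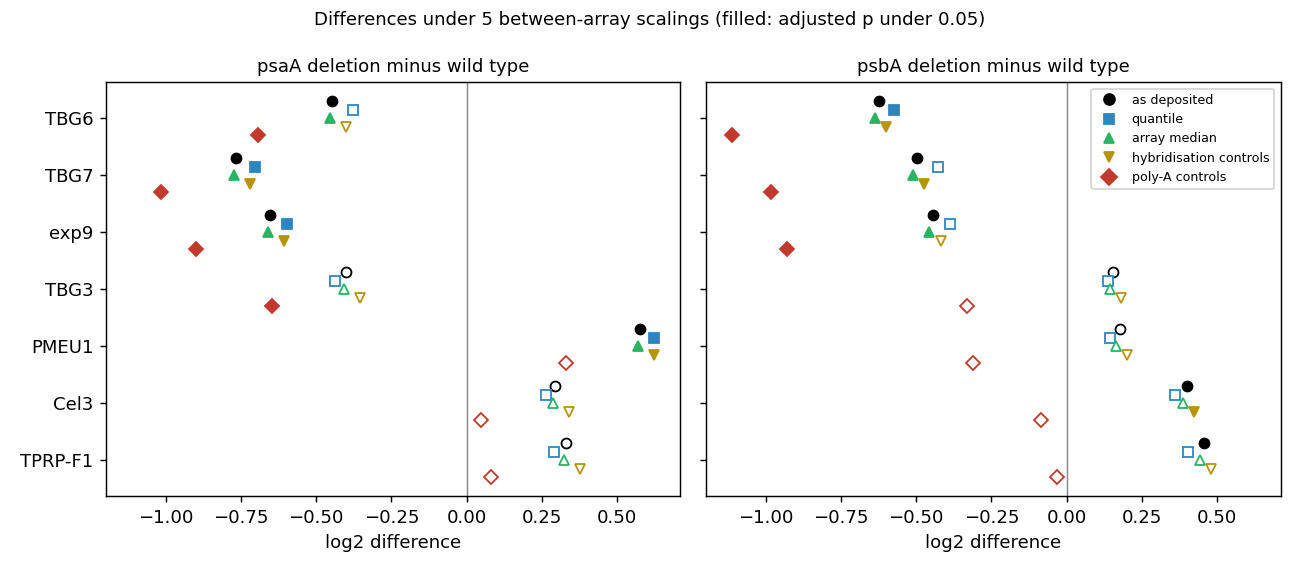
Log2 difference from wild type (horizontal axis) of the 7 genes in the psaA deletion (left) and psbA deletion (right) as deposited and under 4 other scalings between arrays; filled symbols had an adjusted p under 0.05. Poly-A scaling (red diamonds) shifts every gene to the left and puts TBG3, PMEU1, Cel3 and TPRP-F1 below 0 in the psbA deletion.

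Measures of the samples moved with the genotypes too, and their part in these results was not tested. The 3' minus 5' signal of control genes, which reflects how intact the RNA was, exceeded wild type by 0.27 (actin), 0.31 (ef1a), 0.28 (gapdh) and 0.30 (ubiquitin) on psaA arrays. The control genes GlutTrans and PhyB2 went the other way there, with -0.12 and -0.13. On psbA arrays it differed from wild type by -0.13, -0.09, -0.08 and 0.32 for the first 4 genes, and by 0.02 and -0.03 for GlutTrans and PhyB2. Between the mutants (psbA minus psaA) the first 4 genes gave -0.40, -0.40, -0.36 and 0.02, and GlutTrans and PhyB2 gave 0.15 and 0.10. Leaf photosynthesis genes of the nucleus were lower. In the psaA mutant 7 of 8 passed (median -0.89), beside 6.06% of all probe sets that passed as lower. In the psbA mutant 6 of 8 passed (median -0.67), beside 5.76%. In whole leaves, fewer cells of a type cannot be told apart from less RNA in each cell. Of the markers of other tissues that the annotation names, none of 2 meristem, 3 epidermis and 1 xylem probe sets passed in limma against wild type. Of 3 fruit markers, TPRP-F1, itself among the genes described here, passed as higher in the psbA mutant (0.46). The fruit genes E8 and 2A11 did not pass. Of 4 root markers NRAMP3 passed, lower in the psbA mutant (-0.48), and PT1 differed between the mutants (-0.61, psbA minus psaA).

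Whether other genes of the same wall families moved was asked of 47 further probe sets for 44 genes, collected by symbol. Most did not pass. In the psaA mutant 2 fell and 45 did not pass (4.26% of the list, against 10.7% of all probe sets), and in the psbA mutant again 2 fell and 45 did not pass, against 11.2% of all. Between the mutants 1 of 47 passed (2.13% of the list, against 3.98% of all). The list's median was -0.06 in the psaA mutant and -0.05 in the psbA mutant. Without adjustment, 11, 10 and 10 of the 47 had a p under 0.05 in these 3 comparisons (23.4%, 21.3% and 21.3% of the list), near the 23.8%, 24.5% and 17.8% of all probe sets.

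**Figure D4:**
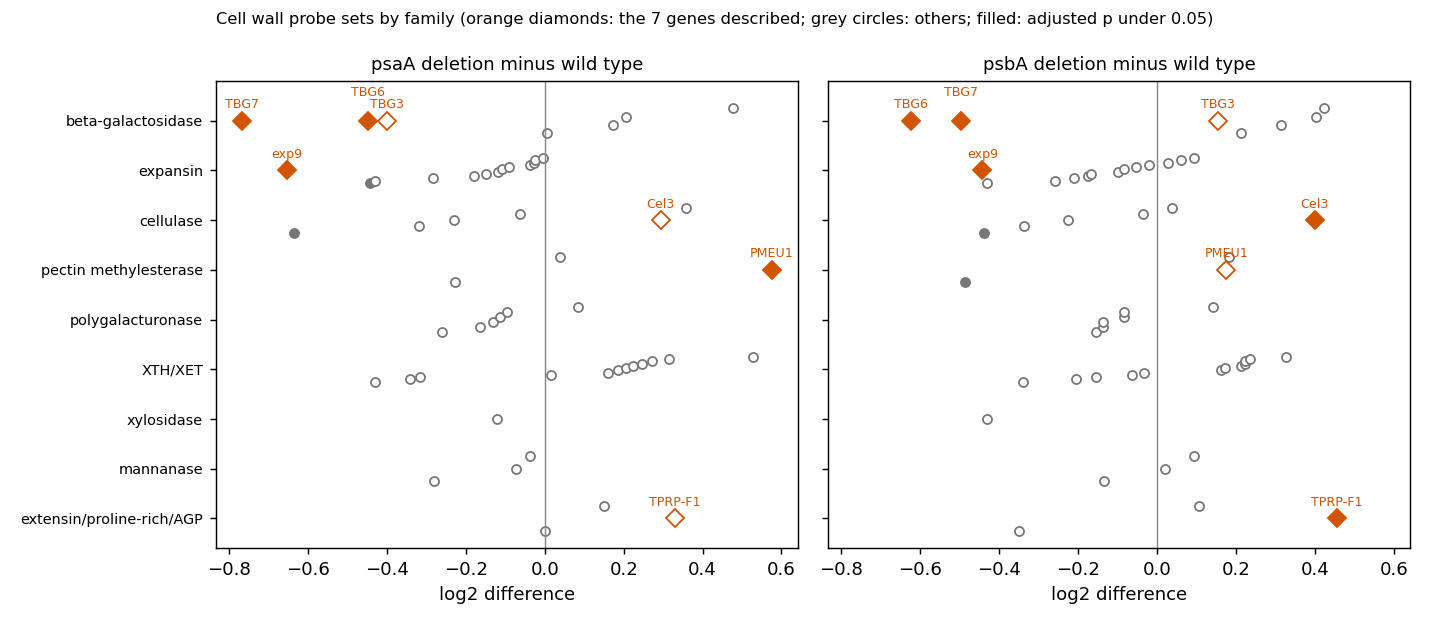
Log2 difference from wild type (horizontal axis) of 54 cell wall probe sets by family (rows) in the psaA deletion (left) and psbA deletion (right); orange diamonds are the 7 genes described, grey circles the other 47, and filled symbols had an adjusted p under 0.05. As deposited, the other 4 beta-galactosidase genes lie at or right of 0 in both mutants, which poly-A scaling turns for 3 and 4 of them, while TBG6 and TBG7 lie left of it.

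The other 4 beta-galactosidase genes, TBG1, TBG2, TBG4 and TBG5, gave values as deposited from 0.005 to 0.48 in the psaA mutant and from 0.21 to 0.42 in the psbA mutant, while with poly-A scaling 3 of the 4 were below 0 in the psaA mutant and all 4 in the psbA mutant. As deposited none passed in limma, and 1 and 2 of them had an unadjusted p under 0.05. TBG5 had 0.29 and -0.03 in the psaA mutant and 0.11 and 0.03 in the psbA mutant, against -0.38 and -0.32 in wild type. Its differences of 0.48 (adjusted p = 0.0516, limma) and 0.42 (adjusted p = 0.0766, limma) lay just outside the threshold, and with poly-A scaling the psbA value was -0.063. In the psaA mutant TBG5 passed with hybridisation-control scaling (0.52, adjusted p = 0.0374, limma) and when only probe sets with a symbol were tested (adjusted p = 0.0423, limma). With poly-A scaling it did not pass there (0.23, adjusted p = 0.333, limma). Between the mutants TBG2 had the smallest p of the 4 (0.31, adjusted p = 0.176 in limma).

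Among 12 other expansin probe sets of 11 genes, all 12 deposited values were below 0 in the psaA mutant (8 with hybridisation-control scaling). They ranged from -0.44 to -0.004. In the psbA mutant 9 were below 0 (12 with poly-A scaling). Over all 10101 probe sets, 4759 were below 0 in the psaA mutant and 4693 in the psbA mutant. Of the 12, exp11 passed in the psaA mutant and none in the psbA mutant (limma). In each mutant 1 of the 12 had an unadjusted p under 0.05 in limma (8.33%, against 23.8% and 24.5% of all probe sets). The exp11 probe set stood at -0.17 and -0.30 in the psaA mutant, against 0.18 and 0.24 in wild type (-0.44, SE 0.118, adjusted p = 0.0486 in limma). All 4 fits that left out an array of either group ended this call, with adjusted p from 0.122 to 0.221 in limma. In the psbA mutant EXPA6 came nearest, with -0.43 at one probe set (adjusted p = 0.126, limma) and -0.26 at the other (adjusted p = 0.24, limma). EXP2 had the smallest p between the mutants (0.24, adjusted p = 0.274, limma).

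Of 5 other endo-glucanase probe sets, CEL8 passed as lower in the psaA mutant and cel5 in the psbA mutant, opposite in sign to Cel3. Both were also lower in the other mutant without passing. CEL8 gave -0.34 in the psbA mutant (adjusted p = 0.139, limma) and cel5 gave -0.32 in the psaA mutant (adjusted p = 0.133, limma). Neither passed between the mutants (0.30 for CEL8 and -0.12 for cel5, psbA minus psaA). CEL8 had -0.32 and -0.27 in the psaA mutant, against 0.48 and 0.20 in wild type (-0.64, SE 0.126, adjusted p = 0.0145 in limma). The call was lost without psaA replicate 1, psaA replicate 2 or wild-type replicate 1, with adjusted p of 0.0971, 0.0783 and 0.0993 in limma. The endo-glucanase gene cel5 had -0.22 and -0.02 in the psbA mutant, against 0.38 and 0.26 in wild type (-0.44, SE 0.116, adjusted p = 0.0466 in limma). That call was lost with any of the 6 arrays left out, with adjusted p from 0.0558 to 0.208 in limma. Between the mutants cel7 came nearest (-0.39, adjusted p = 0.252, limma).

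The pectin genes gave 1 call outside PMEU1. PE1, a pectinesterase gene by its symbol, had -0.26 and -0.24 in the psbA mutant, against 0.13 and 0.34 in wild type (-0.49, SE 0.131, adjusted p = 0.0487 in limma), a fall where PMEU1 gave 0.18. Leaving out any of the 6 arrays ended it, with adjusted p from 0.056 to 0.236 in limma. In the psaA mutant PE1 gave -0.23 (adjusted p = 0.346, limma) and between the mutants -0.26 (adjusted p = 0.349, limma). PME2.1, the other pectin methylesterase gene, gave 0.04, 0.18 and 0.14 for the psaA mutant against wild type, the psbA mutant against wild type and the psbA against the psaA mutant, and did not pass. Of 6 polygalacturonase genes, whose enzymes cut the pectin backbone, none passed in limma in any comparison, with 1, 0 and 1 at an unadjusted p under 0.05. The smallest p belonged to XOPG1 in the psaA mutant (-0.26, adjusted p = 0.199), TAPG2 in the psbA mutant (-0.16, adjusted p = 0.442) and PG2 between the mutants (0.27, adjusted p = 0.229), all by limma.

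Xyloglucan endotransglucosylases cut and rejoin the hemicellulose that ties cellulose together. Of their 12 probe sets none passed against wild type in limma as deposited (5 and 2 did unadjusted), and 1 passed between the mutants. XTH3 had -0.11 and -0.20 in the psbA mutant, against 0.31 and 0.75 in the psaA mutant (-0.68, SE 0.149, adjusted p = 0.0444 in limma), with wild type at 0.03 and -0.03. The psaA arrays of XTH3 lay 0.44 apart, and the call held with psaA replicate 1 left out (adjusted p = 0.0345) but with none of the other 5 arrays left out (adjusted p from 0.0846 to 0.192, limma). Against wild type XTH3 gave 0.53 in the psaA mutant (adjusted p = 0.0609, limma). It passed there with hybridisation-control scaling (0.57, adjusted p = 0.0313, limma) and did not pass with poly-A scaling (0.28, adjusted p = 0.252, limma). The smallest p in the psbA mutant was that of 1 of 3 XTH16 probe sets (-0.34, adjusted p = 0.0959, limma), while another XTH16 probe set gave 0.23.

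In the remaining families no probe set passed in limma. The xylosidase gene XYL1 gave -0.12, -0.43 (adjusted p = 0.0665, limma) and -0.31 (adjusted p = 0.246, limma) for the psaA mutant against wild type, the psbA mutant against wild type and the psbA against the psaA mutant. Of 3 mannanase genes, MAN2 came nearest in the psaA mutant (-0.28, adjusted p = 0.142, limma) and between the mutants (0.37, adjusted p = 0.0953, limma), and MAN1 in the psbA mutant (-0.13, adjusted p = 0.552, limma). AGP-1 gave 0.15 in the psaA mutant, -0.35 in the psbA mutant and -0.50 between the mutants (adjusted p = 0.112, limma). In these families 1, 2 and 3 probe sets had an unadjusted p under 0.05 in the 3 comparisons.

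Genes with a profile like each of the 7 were looked up among 131 genes with a symbol that passed in at least 1 comparison, by Pearson's r over the 6 arrays, as a description only. Since 6 arrays hold 3 genotypes, r follows the 3 group means, and the root mean square (RMS) difference of the mean-centred log2 values tells whether the size of the movement was alike. Nearest to TBG6 was cel5, the endo-glucanase gene described above (r = 0.993, RMS difference 0.0796), followed by the lipoxygenase gene loxC (0.967) and the aquaporin gene Aqp2 (0.930), both of which moved further than TBG6, with RMS differences of 0.373 and 0.276. TBG7 was most like the phytoene desaturase gene PDS (r = 0.985, RMS difference 0.0723), then the antenna gene CAB4 (0.983, RMS difference 0.183) and the phytoene synthase gene Psy1 (0.975, RMS difference 0.102). For exp9 the nearest genes, the violaxanthin de-epoxidase gene VDE (r = 0.994), GPAT (0.993) and ca2 (0.993), moved further than exp9 itself, with RMS differences of 0.427, 0.158 and 0.92.

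Cel3 lay closest to GBF12 (r = 0.995, RMS difference 0.0182), then the translation factor gene eIF-5A3 (0.986, RMS difference 0.0889) and the chaperone gene HSC80 (0.979, RMS difference 0.196). TPRP-F1 was nearest to the nucleoside diphosphate kinase gene NDK (r = 0.989, RMS difference 0.0308), then the MAP kinase kinase gene MKK4 (0.962, RMS difference 0.115) and the proline transporter gene ProT1 (0.931, RMS difference 0.0926). PMEU1 followed the subtilase gene sbt4a (r = 0.995, RMS difference 0.054), the protein kinase gene PTI1 (0.981, RMS difference 0.0643) and DEM2 (0.975, RMS difference 0.161). TBG3 had the loosest match, AREB1 (r = 0.921, RMS difference 0.104), with SDH at 0.915 (RMS difference 0.109) and PRO1 (gene ID 544018) at 0.855 (RMS difference 0.149). Within the 7 genes, r was 0.902 between TBG7 and exp9 and 0.926 between Cel3 and TPRP-F1, and -0.908 between TBG7 and PMEU1, while TBG3 and TBG6 gave -0.00913.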

How the data were processed

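Leaf RNA of 6 tobacco samples was hybridised to Affymetrix tomato arrays. The authors deposited log2 values for 10209 probe sets. RMA and GCRMA are named, per the submitters' processing notes; their roles and versions, and the base of the logarithm, are not given in the sources used here, and log2 was assumed as the scale of both methods. The median over the 6 arrays was 0, within 1e-06, in each of the 10209 probe sets. Without signal levels, dim probe sets could not be filtered.

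Groups came from the sample titles. Without 108 control probe sets, 10101 were tested. limma 3.58.1 (R 4.3.3) fitted genotype to all 6 arrays with 3 residual and 5.39 prior degrees of freedom, and the fit was tested on simulated data. The number of arrays limits precision (median SE 0.125). Gene names came from the platform annotation of the array (909 probe sets with a symbol); clauses on function are background on the tomato genes. Members and lists were chosen with earlier results of these data known. Further wall genes were collected by symbol patterns for the families named, leaving out AgpL1, AGPL3 and AGP-S2, which are starch synthesis genes. The symbol CELLULASE did not match the patterns, so it is missing from the endo-glucanase list. Named are all 7 genes, each further wall probe set that passed, the smallest p per family and comparison, and the 3 genes with the highest r to each of the 7. Same-numbered replicates did not deviate together (correlations 0.021, -0.00489 and -0.00856), so the numbers were not taken as pairs. Alternatives were leaving out each array, a replicate block, 4 scalings, a 2-group fit, robust eBayes and testing symbol-bearing probe sets only. Plots were drawn with matplotlib 3.10.9.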

Additional observations from a re-analysis of the deposited data

Results flagged for a closer look

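Differences between the mutants, which are also the test of whether their differences from wild type differ, passed in limma for 10 genes named above. TBG3 gave 0.556 (psbA minus psaA) with both psbA arrays above both psaA arrays, and it was chosen with this comparison known. XTH3 gave -0.682 and the root marker PT1 gave -0.611, in the same direction of subtraction. The other 7 were named for profiles like one of the cell wall genes and drawn only from genes that passed a comparison, so their passing adds nothing about the cell wall genes. AREB1 (0.623), SDH (0.581) and PRO1 (0.534), named beside TBG3, stood higher in the psbA mutant, as did VDE (0.556) and ca2 (0.810), named beside exp9. DEM2 (-0.561) and PTI1 (-0.507), named beside PMEU1, stood lower there. Groups of 2 arrays were too small to look for a single array far from the others.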

How the results depend on the processing

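With 1 array left out, the probe sets called ranged from 494 to 994 (psaA mutant against wild type), 509 to 842 (psbA mutant against wild type) and 115 to 266 (psbA against psaA mutant), those of the 7 genes from 1 to 4, 0 to 1 and 0 to 0, and those of other wall genes from 0 to 2, 0 to 0 and 0 to 1. The replicate block left 3, 1 and 0 of the 7 genes and 1, 1 and 0 other wall probe sets; the replicate numbers did not pair the arrays. Poly-A scaling gave 1623, 6615 and 902 calls, of which 7.95%, 1.27% and 6.76% were higher, against 43.5%, 48.4% and 44.8% as deposited. It called 4, 3 and 1 of the 7 genes, and 11, 33 and 4 other wall probe sets, all lower. It reversed TBG3 (-0.33), TPRP-F1 (-0.030), PMEU1 (-0.31), Cel3 (-0.087) and TBG5 (-0.063) in the psbA mutant, TPRP-F1 (-0.11), exp9 (-0.029) and Cel3 (-0.13) between the mutants and AGP-1 (-0.10) in the psaA mutant. In the psaA mutant, leaving out 1 array also reversed AGP-1, which ranged from -0.045 (without wild-type replicate 2) to 0.35, and XYL1, which ranged from -0.26 to 0.018 (without psaA replicate 2).

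In the psbA mutant, hybridisation-control scaling called 3 of the 7 genes and 0 other wall probe sets, array-median scaling 3 and 2, quantile normalization 1 and 0, the 2-group fit 1 and 0, and robust eBayes 3 and 1. Between the mutants the 2-group fit called 266 probe sets, 0 of the 7 genes and 0 other wall probe sets. In the psaA mutant quantile normalization and robust eBayes each left 1 other wall probe set, and hybridisation-control scaling called 3, of which 2 were higher. Testing probe sets with a symbol only gave 139, 120 and 73 calls, because fewer were tested. Where a limma count was 0, an unadjusted p under 0.05 was held by 5 of the 7 genes in the psbA mutant and 2 between the mutants, and by 8 (psaA mutant), 5 to 12 (psbA mutant) and 5 to 7 (between the mutants) other wall probe sets. Of all probe sets in those settings, 19.3% (psaA mutant), 19.9% to 24.2% (psbA mutant) and 13.9% to 17.3% (between the mutants) had such a p. Apart from fewer arrays, lost degrees of freedom and fewer probe sets tested, the cause of these changes was not tested. Precision is limited by 2 arrays per group, and nearness to background is unknown.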
